A study of Homo sapiens with 14 samples.

Results

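The NLRP genes encode nucleotide-binding, leucine-rich repeat proteins with a pyrin domain, and 10 of their loci were followed here in human embryonic stem cells (hESCs). They were NLRP1, NLRP2, NLRP3, NLRP4, NLRP5, NLRP7, NLRP9, NLRP11, NLRP13 and NLRP14, chosen by name among 20007 protein-coding genes of GENCODE release 44 (hg38). Each gene body was taken with 20 kb on each side, and windows that met were merged. This gave 4 windows on chromosome 19, which hold 7 of the genes in 476.6 kb, and 3 windows elsewhere, which hold NLRP1 (chromosome 17), NLRP3 (chromosome 1) and NLRP14 (chromosome 11) in 324.0 kb. A peak was placed in a window by its midpoint.

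All samples came from WIBR3, an established hESC line with no genetic change named in the labels, grown on mouse embryonic fibroblast feeders. Naïve cells were kept in 5i/L/A, a medium with kinase inhibitors, LIF and activin, after conversion from the primed state as a polyclonal population, and primed cells in conventional serum-containing medium with FGF2. ChIP-seq, which sequences the DNA pulled down with an antibody after crosslinking, was directed at BRG1 (SMARCA4) and BRM (SMARCA2), the alternative ATPases of the BAF chromatin remodelling complex, at its scaffold subunit BAF155 (SMARCC1) and at the transcription factor SOX2. The question was where these proteins sit in the naïve and the primed state.

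The lists held 57884 BRG1, 62338 BAF155, 17413 BRM and 1940 SOX2 peaks in naïve cells, and 15611 BRG1, 58352 BAF155 and 9290 SOX2 peaks in primed cells. The primed BRM list, with 167 peaks, had none in any NLRP window. Each antibody and state had 1 library or, for SOX2, a pair of libraries with identical lists, so the spread between replicates is unknown for every value given here. Intervals are exact, at the 95% level, and cover counting error only. They treat peaks as independent, which neighbouring peaks are not. Read depth was not used, and the naïve BRG1 list is much longer than the primed one, so the states are compared mainly by BAF155, whose lists are of like length.

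NLRP proteins fall into a group of innate immune sensors and a group that acts in the germ line and early embryo. NLRP1 and NLRP3 assemble inflammasomes, protein platforms that activate caspase-1 and the cytokine interleukin-1β. NLRP5 (MATER) is part of the subcortical maternal complex of the oocyte and cleavage-stage embryo, and maternal mutations of NLRP7 cause recurrent hydatidiform mole, a pregnancy with lost maternal imprints. NLRP2 has likewise been tied to imprinting, and NLRP4, NLRP9, NLRP11, NLRP13 and NLRP14 are expressed mainly in germ cells and early embryos.

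The sequences of the sites on which the results turn are given in hg38 on the plus strand, 5′ to 3′. The first is the intronic NLRP5 site with the strongest naïve BAF peaks (chr19:56015817-56016116), in which capitals mark the 233 bases that lay in the naïve BRG1, BAF155 and BRM peaks alike:
NLRP5 intron 4: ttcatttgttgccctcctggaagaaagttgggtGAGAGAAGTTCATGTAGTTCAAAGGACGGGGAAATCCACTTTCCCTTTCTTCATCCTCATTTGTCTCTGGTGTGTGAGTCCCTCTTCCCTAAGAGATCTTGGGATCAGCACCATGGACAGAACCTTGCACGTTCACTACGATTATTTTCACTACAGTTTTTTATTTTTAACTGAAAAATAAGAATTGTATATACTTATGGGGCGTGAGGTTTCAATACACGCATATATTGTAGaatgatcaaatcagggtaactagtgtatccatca

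The next is the NLRP1 site bound in both states (chr17:5593568-5593767), a window of 200 bases at the midpoint of the naïve BRG1 peak, in which capitals mark a SOX word (CATTGT or CTTTGT, searched on both strands):
NLRP1, BRG1: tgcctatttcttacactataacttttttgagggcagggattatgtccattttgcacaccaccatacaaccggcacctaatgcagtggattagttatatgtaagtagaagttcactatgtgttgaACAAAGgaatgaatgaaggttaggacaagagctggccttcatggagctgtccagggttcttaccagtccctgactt

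A SOX word was present in such windows at 20.3% of all naïve BRG1 peaks, and at 59.0% of all naïve and 59.5% of all primed SOX2 peaks. The last is the NLRP14 promoter (RefSeq, GRCh38.p14, chr11:7020229-7020528), which lay under BAF155 in both states, with the KLF word GGGNGNGGC in capitals, in 2 overlapping copies:
NLRP14 promoter: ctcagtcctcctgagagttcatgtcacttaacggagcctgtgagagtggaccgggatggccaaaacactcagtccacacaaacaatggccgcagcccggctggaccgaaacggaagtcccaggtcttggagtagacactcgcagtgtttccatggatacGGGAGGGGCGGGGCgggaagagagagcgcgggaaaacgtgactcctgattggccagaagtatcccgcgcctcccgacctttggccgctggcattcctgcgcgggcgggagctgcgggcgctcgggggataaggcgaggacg

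That word, searched on both strands, was in 30.6% of 35116 RefSeq promoters of this length. A match of letters is a description and not a binding site.

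Counted gene by gene, naïve BAF peaks lay at nearly every NLRP gene and primed ones at few. A naïve BRG1 peak was found in the windows of 9 of the 10 genes, against 87.3% of all protein-coding genes, and a naïve BAF155 peak in 8, against 87.2%. Naïve BRM was found at 3 genes (54.3% of all genes). A naïve SOX2 peak lay at 2 (7.56%), which share 1 and the same peak. The naïve BRG1 and BAF155 shares are near those of all genes, so the presence of such a peak did not set the family apart. The naïve BRM share was below that of all genes, and the naïve SOX2 share rests on 1 peak.

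In primed cells the shares were below those of all genes. A primed BRG1 peak was found at 2 of the 10 genes, NLRP1 and NLRP14, against 55.4% of all genes, and a primed BAF155 peak at 4, against 88.2%. A primed SOX2 peak was found at 1 gene, NLRP2, against 26.3%. The windows of 5 genes, NLRP4, NLRP7, NLRP9, NLRP11 and NLRP13, held a naïve BRG1 or BAF155 peak and no primed one, a pattern found at 4.90% of all genes. The windows of some of these genes overlap, so the 5 are not independent. The reverse pattern was found at 0 of the 10, against 2.85%. NLRP3 alone had no peak of any of the 7 lists, as did 6.75% of all genes.

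Scaled to window length, 3 members carried dense naïve BAF peaks. NLRP9 had 11.4, NLRP7 10.9 and NLRP2 10.2 naïve BRG1 peaks per 100 kb, densities that 10.3%, 11.6% and 13.0% of all protein-coding genes reached. NLRP1 (3.75 per 100 kb, reached by 47.2%) and NLRP5 (2.94, reached by 54.2%) lay near the middle of all genes, and NLRP4, NLRP11, NLRP13 and NLRP14 lay below it, between 1.24 and 2.34. For primed BAF155 the densest member was NLRP1 with 3.12 per 100 kb, a density reached by 50.8% of all genes.

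**Figure D1:**
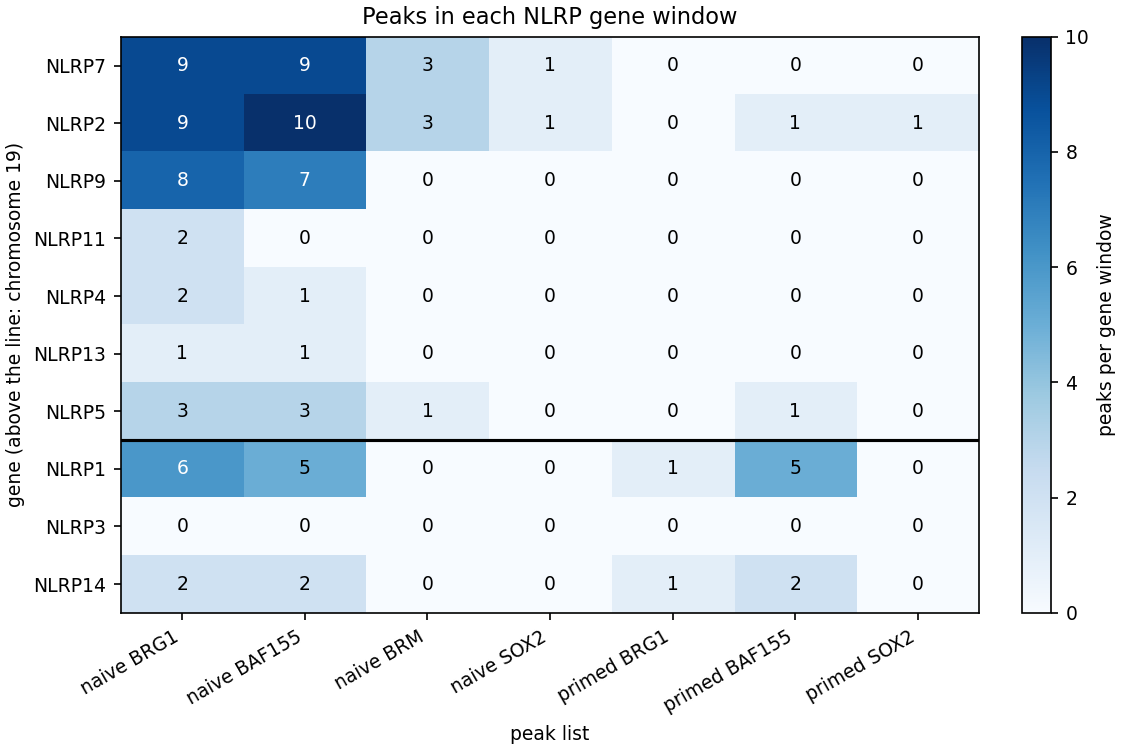
Number of peaks of each list (columns) in the window of each NLRP gene (rows, gene body with 20 kb on each side), with the 7 chromosome 19 genes above the line in genomic order and peaks counted for every gene whose window holds them. Naïve BRG1 and BAF155 counts of 7 to 10 are seen at NLRP7, NLRP2 and NLRP9, and primed BAF155 counts reach 5 at NLRP1 and at most 1 on chromosome 19.

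NLRP7 (ENSG00000167634.12, chromosome 19, 54923509 to 54966312, minus strand) and NLRP2 (ENSG00000022556.16, chromosome 19, 54953130 to 55001142, plus strand) lie head to head. Their bodies share 13183 bp, and the starts of their canonical transcripts are 131 bp apart. Their merged window of 117.6 kb held 12 naïve BRG1, 12 naïve BAF155, 4 naïve BRM and 1 naïve SOX2 peaks, against 0 primed BRG1, 1 primed BAF155 and 1 primed SOX2 peaks. It had 10.2 naïve BAF155 peaks per 100 kb (5.27 to 17.8), close to the 10.0 of the NLRP9 window. Other gene windows on chromosome 19 had 8.43 (8.17 to 8.69), which lies inside that interval. The naïve BAF155 peaks covered 15.1% of the window and the naïve BRG1 peaks 13.8%, where the same lists covered 1.35% and 1.21% of the genome. The genome includes sequence far from genes. Coverage of other gene windows on chromosome 19 was not computed, so these values do not set the window apart from them.

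The densest stretch ran from intron 3 of NLRP7 into the part it shares with NLRP2. Here 6 BAF regions (BRG1 and BAF155 peaks merged), all naïve-only, followed one another over 20.1 kb from 54944058 to 54964126 and covered 63.4% of it. They were built from 6 BRG1 and 7 BAF155 peaks. These peaks were broad rather than high: 9 of the 13 were at least 1 kb wide, and their fold enrichment over input ranged from 2.33 to 3.09.

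In the middle of the run, intron 1 of NLRP7 held a region of 5775 bp (54949233 to 54955007) in which all 4 naïve proteins met. A single BRG1 peak spanned 54949233 to 54954906 with a fold of 2.85. BAF155 had a peak from 54949409 to 54951866 with a fold of 3.09, which stood in the top 9.10% of its list by q-value. A second BAF155 peak spanned 54952517 to 54955007 with a fold of 2.64, centred 594 bp from an annotated start of NLRP2. BRM had peaks at 54949616 to 54950839 (fold 2.98) and at 54951553 to 54954717 (fold 3.00). The midpoint of the second BRM peak lay 5 bp from another annotated start of NLRP2. The naïve SOX2 peak in this region had a fold of 7.47.

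Further along, in intron 3 of NLRP7, a BRG1 peak (54946241 to 54948417, fold 2.44) and a BAF155 peak (54946769 to 54948155, fold 2.48) covered the start of the RefSeq NLRP7 transcript. By contrast, no peak of any list lay within 1 kb of the shared canonical start of NLRP7 and NLRP2. The nearest peak midpoint was that of BRG1, at 2.73 kb on the NLRP7 side. The highest BRG1 fold of the window, 3.11, was outside both genes, at 54910864 to 54911720 in NCR1, which encodes a receptor of natural killer cells. The other BRM peaks of the window were outside them too, at 54917847 to 54918412 (fold 3.37) between NLRP7 and NCR1, and at 55012629 to 55012929 (fold 3.40) in GP6-AS1.

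The primed peaks of the window lay at a site of their own. The primed SOX2 peak (fold 8.47) lay downstream of NLRP2 and overlapped the only primed BAF155 peak of the window (fold 3.41). No naïve peak covered that site, but naïve-only BAF regions lay on both sides of it, also downstream of NLRP2.

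**Figure D2:**
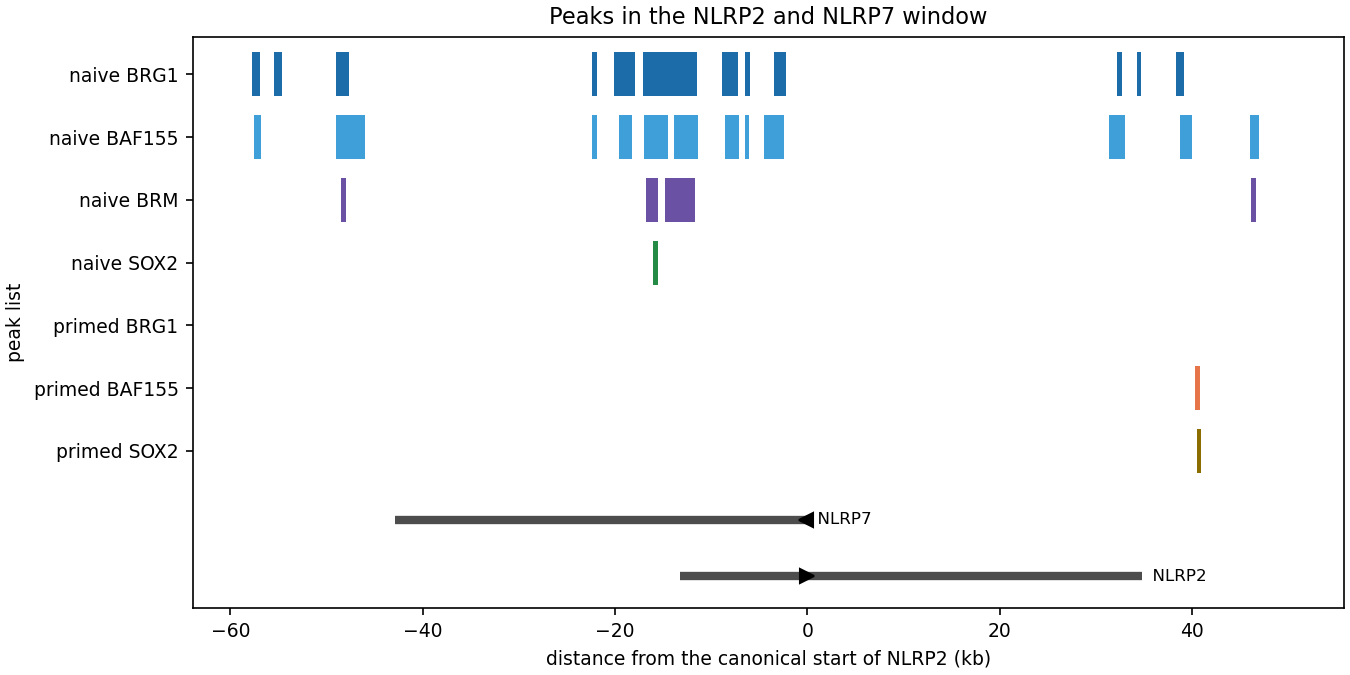
Peaks of each list (rows) along the merged NLRP2 and NLRP7 window, by distance from the canonical start of NLRP2 in kb, where dark bars are gene bodies, arrowheads are canonical starts and the narrowest peaks are drawn wider than they are. Naïve peaks crowd the 5′ part of NLRP7, left of the start. The primed BAF155 and SOX2 peaks stand together downstream of NLRP2, with naïve peaks on both sides of them.

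NLRP9 (ENSG00000185792.10, chromosome 19, 55708438 to 55738402, minus strand) had 8 naïve BRG1 and 7 naïve BAF155 peaks and no other peak. Only part of them lay in the gene. The body of NLRP9 held 4 BRG1 peaks (folds 2.67 to 3.34) and 2 BAF155 peaks (2.87 and 3.07), and neither list had a peak within 1 kb of its start. The neighbouring gene EPN1, which encodes an endocytic adaptor, held 3 of the BRG1 and 4 of the BAF155 peaks. The highest fold of the window was there, a BAF155 peak at 55694284 to 55694586 with a fold of 3.81 (top 8.23%).

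NLRP11 (ENSG00000179873.14), NLRP4 (ENSG00000160505.16) and NLRP13 (ENSG00000173572.12) share a window of 186.9 kb that was the emptiest of those on chromosome 19. It held 3 naïve BRG1 peaks, 1 naïve BAF155 peak and no BRM, SOX2 or primed peak. One BRG1 peak (55835250 to 55836020, fold 3.19) lay 0.905 kb upstream of the canonical start of NLRP4, where NLRP11 also has a start, on the opposite strand. The others were in intron 1 of NLRP11 (55821931 to 55822408, fold 2.98) and in intron 1 of NLRP13 (55930625 to 55931256, fold 2.95). The BAF155 peak was in intron 8 of NLRP4 (55878294 to 55878993, fold 2.85). No 2 of these peaks met, so no site of this window had both subunits.

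NLRP5 (ENSG00000171487.16, chromosome 19, 55999726 to 56061810, plus strand) had few peaks, but among them the strongest naïve BAF site of the family. In intron 4, 16.3 kb from the canonical start, BRG1 (56015816 to 56016179), BAF155 (56015823 to 56016192) and BRM (56015850 to 56016082) overlapped almost exactly. Their folds were 4.30, 4.99 and 5.22. By q-value the peaks stood in the top 3.69%, 1.20% and 2.60% of their lists, in each the best rank of any peak in these windows. No primed peak and no SOX2 peak of either state lay there. The rest of the window held single BAF155 and BRG1 peaks in introns 5 and 6, a paired site at the start of LINC01864, and 1 primed BAF155 peak, 81.2 kb downstream of the start (56080673 to 56081203, fold 3.68).

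Away from chromosome 19, 6 BAF regions were common to both states, 4 were naïve-only and 1 was primed-only. NLRP1 (ENSG00000091592.17, chromosome 17, 5499415 to 5619424, minus strand) had 6 naïve BRG1 and 5 naïve BAF155 peaks, and 1 primed BRG1 and 5 primed BAF155 peaks. They formed 4 common, 3 naïve-only and 1 primed-only BAF regions. The strongest by q-value was an intronic site of the longer transcripts, about 9.2 kb upstream of the canonical start, with BRG1 and BAF155 in both states between 5593530 and 5593903. Its BRG1 fold was 4.17 in naïve and 2.92 in primed cells, and its BAF155 fold 3.51 in naïve and 4.22 in primed cells. The folds come from different libraries and inputs and were not tested against each other. Of the other common regions, 1 lay upstream of the gene and 2 at starts of other genes, those of DERL2 and MIS12 and of ENSG00000286190, which overlaps the 3′ end of NLRP1. Within 1 kb of inner starts of NLRP1 lay a naïve BAF155 peak in exon 12 (5530485 to 5530668, fold 3.27) and a naïve BRG1 peak in intron 4 (5553746 to 5554230, fold 2.64). The primed-only region was a single BAF155 peak near the 3′ end of the gene (5509185 to 5509488, fold 2.84).

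NLRP14 (ENSG00000158077.5, chromosome 11, 7020479 to 7071526, plus strand) was the only member with a BAF155 peak at its canonical start, and had it in both states. The naïve peak (7020024 to 7020624, fold 2.57) was centred 155 bp upstream of the start and the primed peak (7020336 to 7020941, fold 2.88) 159 bp downstream. The start is shared with the divergent zinc finger gene ZNF214, whose start was 10 bp from the naïve midpoint, so the peaks cannot be assigned to one of the genes. A second common site lay past the gene, between 7077108 and 7077486. It had BRG1 and BAF155 in both states, with BAF155 folds of 3.27 in naïve and 5.50 in primed cells and BRG1 folds of 2.64 and 4.85.

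NLRP3 (ENSG00000162711.18, chromosome 1, 247416156 to 247449108, plus strand), the myeloid inflammasome sensor, had 0 peaks of every list in its 73.0 kb window. Since a list holds only what passed the peak caller's threshold, 0 peaks does not show that the protein was absent.

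**Figure D3:**
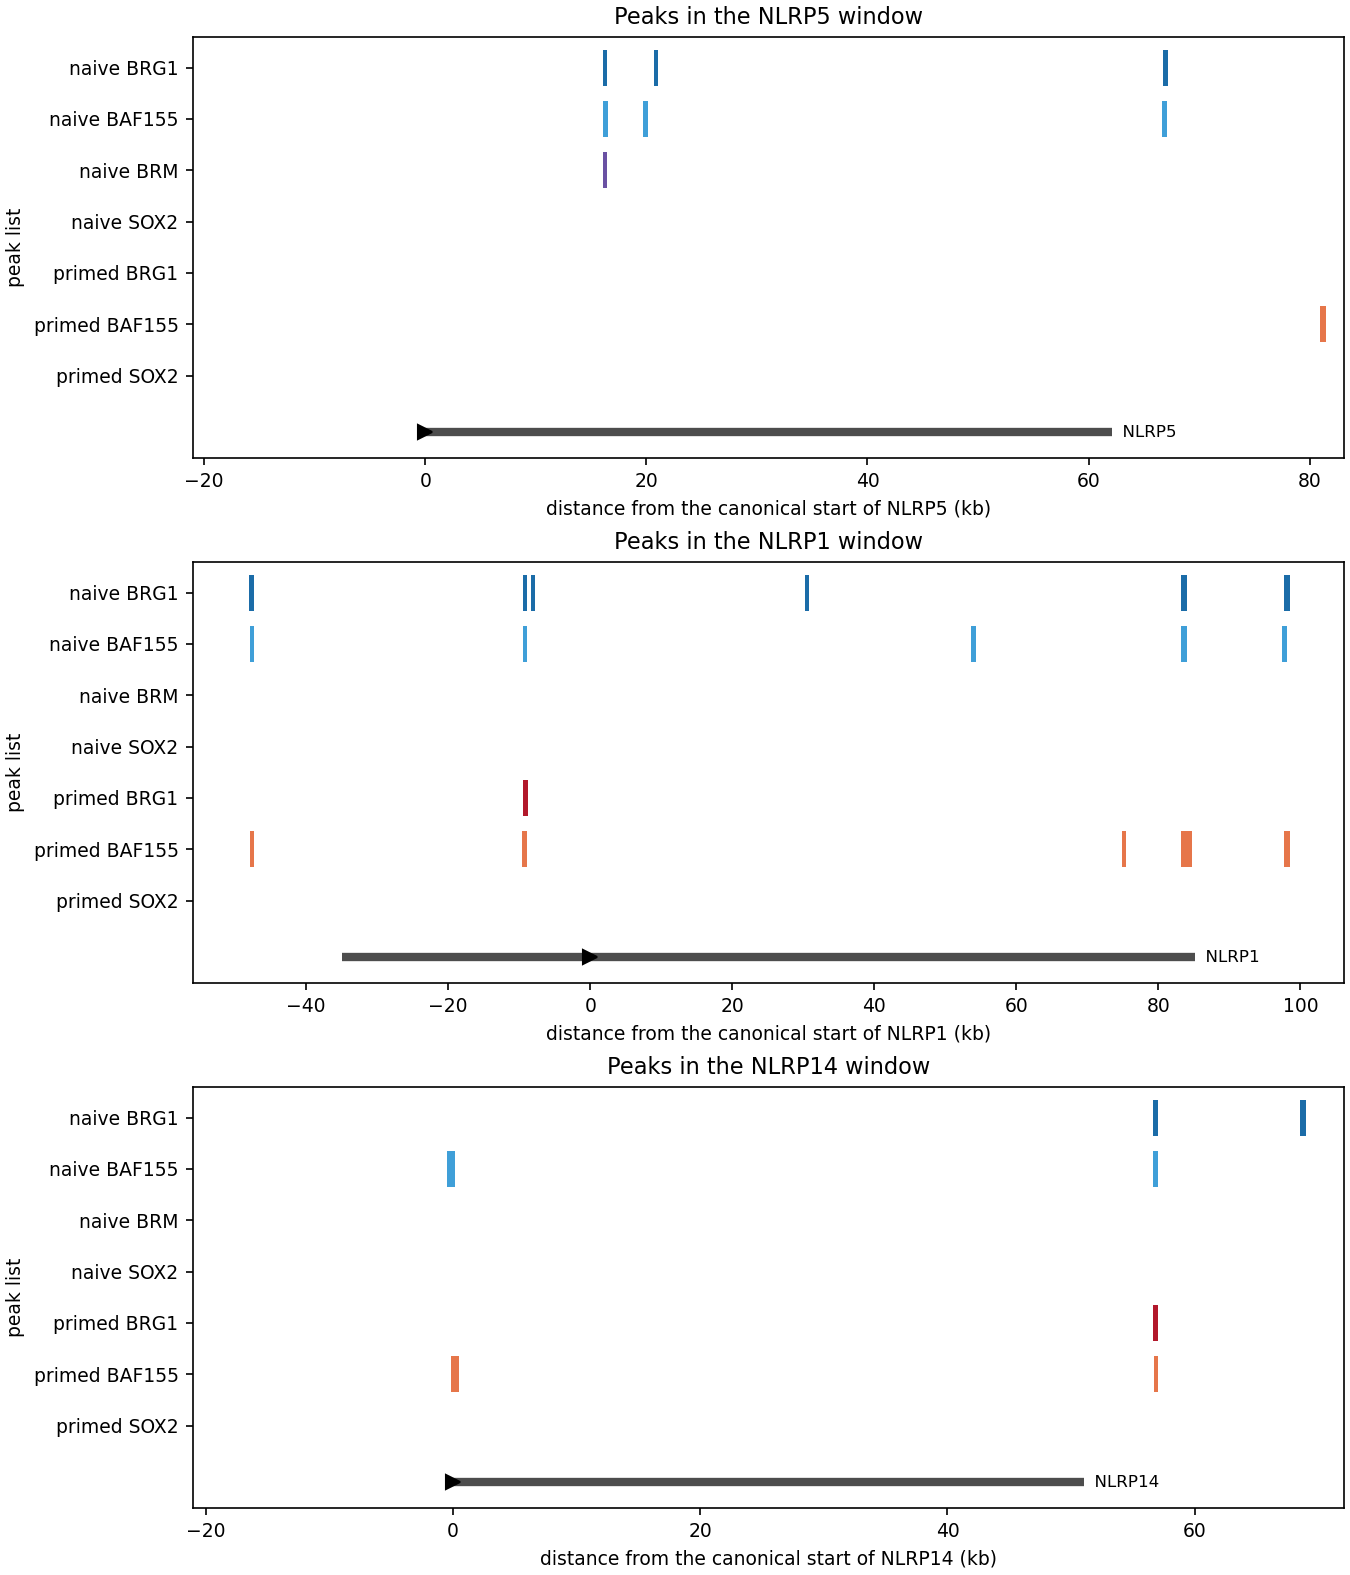
Peaks of each list (rows) in the NLRP5, NLRP1 and NLRP14 windows, by distance from the canonical start of each gene in its direction of transcription, in kb, with dark bars for gene bodies, arrowheads for canonical starts and narrow peaks drawn wider than they are. The BRG1, BAF155 and BRM peaks of NLRP5 coincide near 16.3 kb in naïve cells, whereas NLRP1 and NLRP14 have sites with peaks of both states in one place.

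Set against each other, the chromosome 19 windows had 26 naïve BRG1 peaks, or 5.46 per 100 kb, and the windows elsewhere 8, or 2.47 per 100 kb. The log2 ratio of the densities was 1.14, with an interval of −0.04 to 2.50. For naïve BAF155 the counts were 23 and 7 and the log2 ratio was 1.16 (−0.11 to 2.62). Both intervals include 0, so a difference was not detectable at these counts, although with a 60 kb flank the lower bounds rose to 0.56 and 0.49. Without the NLRP2 and NLRP7 window the ratios were 0.66 and 0.50. Naïve BRM had 5 peaks on chromosome 19 and 0 elsewhere, for a lower bound of −0.68 on the log2 ratio, which rose to 0.52 with the 60 kb flank. SOX2 had 1 and 0 in each state.

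Primed peaks pointed the other way, but again without a detectable difference. BAF155 had 2 peaks on chromosome 19 and 7 elsewhere, for a log2 ratio of −2.36 (−5.67 to 0.03). With a 60 kb flank the ratio was −0.60 (−1.88 to 0.65). BRG1 had 0 peaks on chromosome 19 and 2 elsewhere. The contrast was clearer in the classes of BAF regions. The chromosome 19 windows held 31 naïve-only regions against 4 elsewhere, a density ratio of 5.27 (1.86 to 20.5), and 0 common regions against 6, a ratio of at most 0.577. Of the 31 naïve-only regions, 19 lay in the body of an NLRP gene. Primed-only regions numbered 2 and 1.

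Chromosome 19 itself differed from the rest of the genome, and its part in the contrast was not tested. Other protein-coding gene windows on chromosome 19 held 8.43 naïve and 4.20 primed BAF155 peaks per 100 kb, where gene windows on the other chromosomes held 2.86 and 2.64. These windows were not cleared of the flanks they share with the NLRP windows. Beside these, the windows of the 7 chromosome 19 members were low in both states, with 4.83 naïve (3.06 to 7.24) and 0.420 primed BAF155 peaks (0.0508 to 1.52). Common BAF regions had a density of 3.24 per 100 kb in the other chromosome 19 gene windows, and 0 were found in the windows of the 7 members there (at most 0.774). Naïve-only regions did not set them apart from their neighbours, with 6.50 per 100 kb (4.42 to 9.23) against 6.90 in the other gene windows of chromosome 19 and 2.06 in those of the other chromosomes. NLRP12, an NLRP gene of chromosome 19, is not among the 10. Its 70.7 kb window had 4 common regions, 10 naïve and 6 primed BAF155 peaks. NLRP8, also on chromosome 19 and outside the 10, had 0 common regions, 1 naïve and 0 primed BAF155 peaks in 80.8 kb. Its window overlaps those of NLRP13 and NLRP5. The low values were thus not shared by every NLRP gene of the chromosome, nor confined to the members.

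Taking naïve and primed BAF155 peaks together, 23 of 25, or 92.0% (74.0% to 99.0%), were naïve in the chromosome 19 windows, and 7 of 14, or 50.0% (23.0% to 77.0%), in the windows elsewhere. The whole lists gave 51.7%. The other gene windows of chromosome 19 gave 66.8% (65.5% to 68.0%), below the interval of the NLRP genes there. The lean was not that of 1 window: NLRP2 and NLRP7 had 12 naïve against 1 primed peak and the other chromosome 19 members 11 against 1. Among regions of 1 state only, however, the naïve share was 93.9% (79.8% to 99.3%) at the NLRP genes of chromosome 19 and 89.4% (88.3% to 90.3%) at the other genes of the chromosome, so by this measure they could not be told from their neighbours. It was 61.4% over the genome. The naïve lean rested largely on peaks of low significance: at a −log10 q of at least 3, the chromosome 19 windows kept 3 naïve and 1 primed BAF155 peaks, and 3 naïve-only and 1 primed-only regions. The whole lists kept 17665 naïve and 27065 primed BAF155 peaks at this limit.

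**Figure D4:**
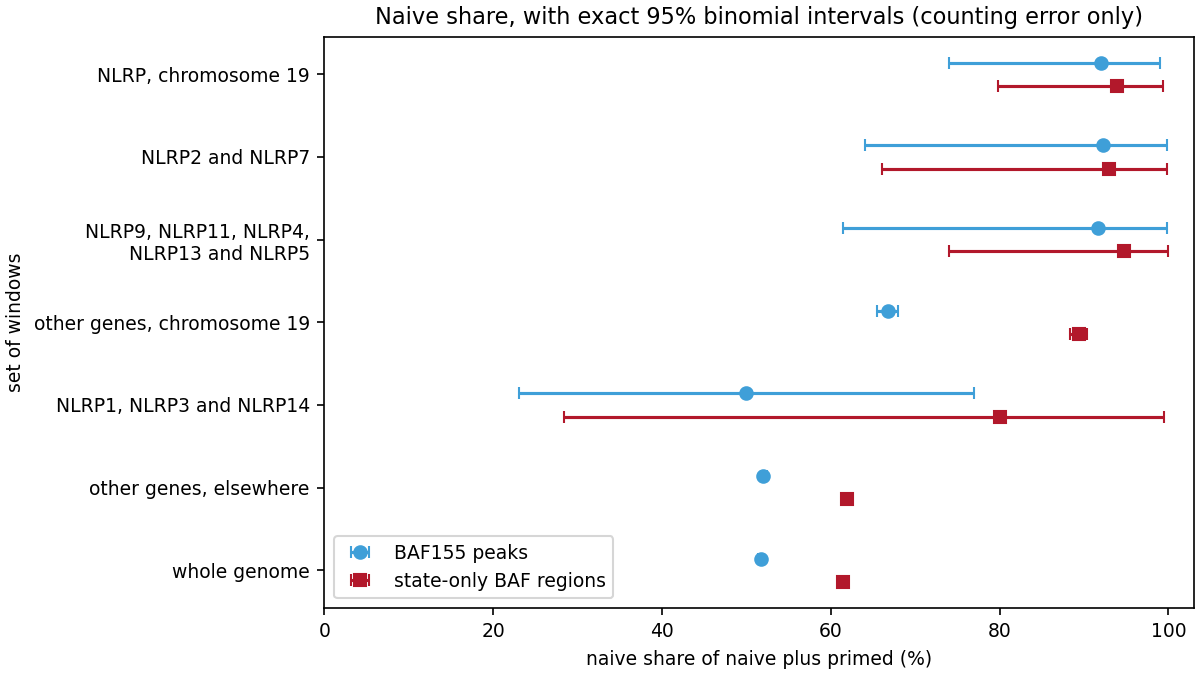
Naïve share, in percent of naïve plus primed, of BAF155 peaks (circles) and of BAF regions found in 1 state only (squares) for 7 sets of windows, with exact binomial intervals. The chromosome 19 NLRP genes sit at 92.0% and 93.9%, and the other genes of that chromosome at 66.8% and 89.4%.

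Naïve peaks of the chromosome 19 windows were mostly weak members of their lists. By q-value, 2 of 26 BRG1 peaks and 6 of 23 BAF155 peaks stood above the middle of their list, and 7.69% and 13.0% reached a −log10 q of 3, where 27.9% and 28.3% of the whole lists did. Peaks elsewhere were stronger for BAF155, with 5 of 7 above the middle. Of the chromosome 19 BAF155 peaks, 10 of 23 were 1 kb or wider (43.5%, against 18.9% of the list). Most of these wide peaks lay in the NLRP2 and NLRP7 window and the rest in that of NLRP9, so the width was not a trait of all chromosome 19 members. None of the 26 BRG1 and 23 BAF155 naïve peaks there met a primed BAF region, which 43.5% and 40.6% of the lists did. In the windows elsewhere 5 of 8 and 6 of 7 met one. With the naïve BRG1 list held to the length of the primed one, 3 of its 34 peaks in all NLRP windows were left, beside 2 primed ones.

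The subunits met at most but not all sites. Of the chromosome 19 peaks, 16 of 26 naïve BRG1 peaks (61.5%, against 71.7% of the list) overlapped a naïve BAF155 peak, and 17 of 23 BAF155 peaks (73.9%, against 66.4%) overlapped BRG1. All 5 BRM peaks overlapped another subunit, as did 94.3% of their list. By position, 15 of the 26 BRG1 and 13 of the 23 BAF155 peaks were in introns, and 4 and 5 within 1 kb of a start of any gene. In the windows elsewhere 4 of 8 and 4 of 7 were within 1 kb of a start.

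**Figure D5:**
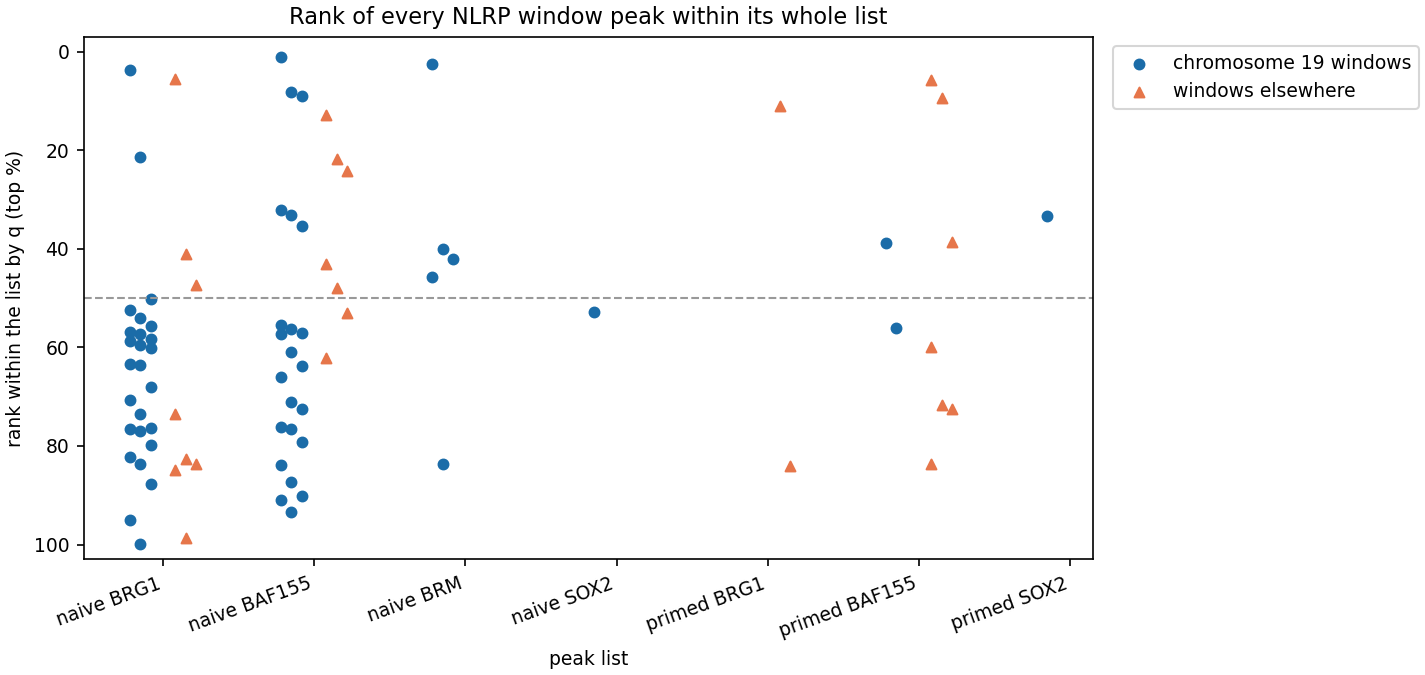
Rank of every peak in the NLRP windows within its whole list by q-value, in percent from the top (0 is the strongest), for chromosome 19 windows (circles) and windows elsewhere (triangles), spread sideways only for legibility, with a dashed line at the middle of each list. Most naïve BRG1 and BAF155 circles lie below the line, while the NLRP5 site stands at 3.69%, 1.20% and 2.60% in the BRG1, BAF155 and BRM lists.

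The set of RefSeq promoters used here (250 bases before to 50 after a start) covered 8 of the 10 genes, in 10 entries. It had no entry for NLRP1 and NLRP13, whose promoters were therefore not examined. A naïve BRG1 peak overlapped the entry of 1 gene, NLRP7, where 38.2% of all 35116 promoters were overlapped. Naïve BAF155 overlapped those of NLRP7 and NLRP14 (38.5% of all promoters), and primed BAF155 that of NLRP14 (48.7%). The promoters of NLRP2, NLRP3, NLRP4, NLRP5, NLRP9 and NLRP11 had no peak of any list.

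The NLRP genes of chromosome 19 arose by duplication, and short reads from repeated sequence cannot be placed with certainty. BAF libraries were read as single 75-base reads, and 5.00% of the 75-base words of the chromosome 19 windows occurred more than once in hg38, against 1.62% elsewhere. The share was 6.54% in the NLRP2 and NLRP7 window and 6.22% in that of NLRP4, NLRP11 and NLRP13. Of the naïve peaks on chromosome 19, 1 BRG1 and 1 BAF155 peak lay more than 50% in such words. The 2 RefSeq starts of NLRP2, 1090 bp apart, are identical at 297 of 300 bases (99.0%). They differ by G142C, A273G and A284T, counted from 1 at the 5′ end, with the base of the upstream entry first. In each, 54.4% of the 75-base words are repeated, and whether this lowered the peak calls at those starts was not tested.

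Of the other NLRP genes, NLRP6, NLRP8, NLRP10 and NLRP12, 4 of 4 had more naïve than primed BAF155 peaks, as did 6 of the 10 members. The members' median difference was 1.00 peaks per gene and that of the other NLRP genes 2.00, where the median over all genes was 0. Among the 5 genes of the subcortical maternal complex, the partners of NLRP5, 4 had more naïve BAF155 peaks and 0 had more primed ones. Examples are OOEP with 10 against 3 and KHDC3L with 8 against 1. Both lie on chromosome 6, and a peak inside both windows would be counted for each. Among 9 genes of the inflammasome, 6 had more naïve BAF155 peaks and 2 more primed ones, NEK7 with 3 against 7 and IL1B with 1 against 3. Over all protein-coding genes, 46.0% had more naïve and 29.8% more primed BAF155 peaks.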

How the data were processed

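ChIP-seq peak lists of WIBR3 hESCs were analysed, 1 for each of 10 ChIP samples. The other 4 of the 14 samples are input libraries, for which no file was used here. According to the study's methods and the submitters' processing notes, the authors checked reads with FastQC 0.10.1, trimmed them with trim_galore and mapped them to hg38 with Bowtie2 2.3.4. They removed duplicates with SAMtools 0.1.19 (BAF subunits, single-end reads) or PICARD (SOX2, paired-end reads). Peaks were called with MACS2 against input, as broad peaks for BAF subunits and narrow peaks for SOX2. Whether libraries were pooled before calling is not given in the sources used here.

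For each peak the deposited lists give a position, a score, its fold enrichment over the input library as a linear ratio, and the p-value and q-value as −log10, all as MACS2 wrote them. The primed BRM list and the second SOX2 list of each state give positions alone. The SOX2 lists of a state were identical in all 1940 naïve and 9290 primed peaks and were counted as 1 sample. How many reads lie behind a list was not used, so a longer list may reflect depth or antibody as well as binding, and a peak below threshold is missing.

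The members and gene lists were chosen with earlier results of these data known. All 10 genes were named with their counts. The sequences and positions of the SOX2 peaks are not reported here. Peaks were named if they were SOX2 or BRM peaks, the highest fold per gene and state, or within 1 kb of a member's start, and other peaks and neighbouring genes were named after their values were seen. To form BAF regions, overlapping BRG1 and BAF155 peaks were merged within each state, and a region was common when the overlap reached 25% of the naïve or the primed region. Shares carry Clopper-Pearson intervals, densities exact Poisson intervals and density ratios exact conditional binomial intervals, with 0.5 added to both counts for the ratio itself where 1 of them was 0. There is no test over replicates. Motifs were searched in 200-base windows, and 75-base words were counted on both strands of the genome. The overlap, merging, density-ratio interval and word steps were tested on simulated data. The counting of peaks in windows and the sorting of regions into classes were not. Python 3.11.15, pandas 2.3.3, NumPy 2.4.6, SciPy 1.17.1, pysam 0.24.0 and samtools 1.23.1 were used. Alternatives changed the flank, the rule placing a peak, the q-value limit, list lengths and the overlap, and 3 more were added after the data were seen.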

Additional observations from a re-analysis of the deposited data

How the results depend on the processing

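With a −log10 q of at least 3, all lists but SOX2 shrank in the NLRP windows: 3 naïve BRG1, 6 naïve BAF155, 1 naïve BRM, 1 primed BRG1 and 4 primed BAF155 peaks were left. The naïve BAF155 log2 density ratio then changed sign to −0.56, and the log2 ratio of naïve-only to primed-only regions on chromosome 19 fell from 3.95 to 1.58 (3 against 1 regions), and could not be formed elsewhere. The cause was not tested. The naïve BRG1 density ratio, 1.14 with an interval reaching −0.04, had lower bounds of 0.11 with a 10 kb and 0.56 with a 60 kb flank. With a 60 kb flank, counts rose to 51 naïve BAF155, 8 naïve BRM, 25 primed BAF155 and 5 primed SOX2 peaks. With lists held to equal length, naïve BRG1 had 3 peaks and primed SOX2 had 0. The primed SOX2 ratio, which rests on 1 peak, was 1.03 and turned to −0.84 with the 60 kb flank. Under all alternatives, 98 values stayed within the main interval or within 1.5 times the main count, and 13 did not. The 98 include ratios given in this paragraph, among them the primed SOX2 ratio of −0.84. Some main intervals could hardly be left, such as that of SOX2, from −5.84 with no upper bound, so staying within them says little. Among these results, only the log2 ratio of naïve-only to primed-only regions on chromosome 19 had a main interval that excluded 0 (1.98 to 7.06). That ratio did not change sign, but at a −log10 q of at least 3 its interval was −2.05 to 7.30. The density ratios of naïve-only and of common regions were not recomputed under the alternatives. Added after the data were seen, leaving out the NLRP2 and NLRP7 window gave log2 density ratios of 0.66 for naïve BRG1 and 0.50 for naïve BAF155, and leaving out peaks at neighbouring genes gave 1.51 and 1.61, with lower bounds of 0.07 and 0.01. Without the NLRP3 window, the primed BAF155 ratio was −2.73 (−6.03 to −0.34), whereas the planned 60 kb flank gave −0.60 (−1.88 to 0.65). Leaving out either SOX2 list gave 1.03 in both states, which identical lists could not change. No paired analysis was possible because the SOX2 lists of a state are identical and no result comes from a test.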
